A study of Rattus norvegicus with 15 samples.

Results

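Heat shock proteins and their co-chaperones were followed by RNA sequencing in lungs of SJY, ALI and control rats, with 5 libraries a group and 15 in all. Members were taken by symbol from a deposited expression table of 22250 genes: the HSP90, HSP70, small heat shock and mitochondrial chaperonin genes, the DnaJ genes of classes A, B and C, the BAG genes and the heat shock factors Hsf1 and Hsf2. This gave 80 genes, of which 72 reached 1 FPKM in at least 5 of the 15 libraries and were tested among 13457 such genes. FPKM is the number of fragments of a gene scaled for its length and for the mapped fragments of the library. SJY lungs came from rats given lipopolysaccharide (LPS, from the outer membrane of Gram-negative bacteria) into the trachea and Sang Ju Yin, a Chinese herbal formula, by mouth. ALI lungs came from rats with acute lung injury from LPS into the trachea alone. Control lungs came from normal rats. All animals are labelled WT, and no group is named that received the instillation without LPS or the formula without LPS. The labels give no strain, age, dose or time after LPS, and leave unsaid whether each library is from a single animal.

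Heat shock proteins are molecular chaperones: HSP70 proteins bind unfolded stretches of a client, DnaJ proteins deliver clients and start the HSP70 ATPase, exchange factors such as the BAG and HSP110 proteins release ADP, and HSP90 acts late on partly folded clients. Each compartment has its own set, with Hspa5 (BiP), Hsp90b1 (GRP94), Dnajb11 and Dnajc3 in the endoplasmic reticulum (ER), Hspa9, Hspd1 and Hspe1 in mitochondria, and most others in the cytosol. Cytosolic chaperone genes are classically induced by HSF1 through heat shock elements, and the ER set by ATF6 and XBP1 through ER stress response elements during the unfolded protein response. In lung, surfactant-making type II cells, plasma cells and activated leukocytes carry a large secretory load.

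The promoters of 7 members on which the results turn are shown first, 4 of the ER, 2 of the cytosol and 1 of mitochondria, because they carry letters known from these response elements. Windows of 300 bases, 250 before to 50 after the annotated start, came from RefSeq (build GRCr8) and were given for 63 of the 80 members. Each is read 5′ to 3′ on the strand of its gene, with matches in capitals. The ER stress response element was searched as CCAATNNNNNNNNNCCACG, its second form as ATTGG, any base and CCACG, and the heat shock element as GAANNTTC (2 units) or GAANNTTCNNGAA (3 units; each such match also holds the 2-unit letters), all on both strands.
Hspa5: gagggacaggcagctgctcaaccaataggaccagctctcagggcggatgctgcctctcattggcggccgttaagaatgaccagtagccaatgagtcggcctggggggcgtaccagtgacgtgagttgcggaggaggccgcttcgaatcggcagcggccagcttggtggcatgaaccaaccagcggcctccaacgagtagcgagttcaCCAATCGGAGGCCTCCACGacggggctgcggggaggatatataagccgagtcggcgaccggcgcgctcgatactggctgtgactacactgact
Hsp90b1: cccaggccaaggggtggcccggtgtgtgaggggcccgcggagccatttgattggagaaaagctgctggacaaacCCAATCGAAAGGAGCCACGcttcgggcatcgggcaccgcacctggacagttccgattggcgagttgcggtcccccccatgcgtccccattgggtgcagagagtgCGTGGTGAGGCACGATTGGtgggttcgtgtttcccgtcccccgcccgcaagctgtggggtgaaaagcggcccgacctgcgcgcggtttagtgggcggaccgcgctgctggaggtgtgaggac
Dnajc3: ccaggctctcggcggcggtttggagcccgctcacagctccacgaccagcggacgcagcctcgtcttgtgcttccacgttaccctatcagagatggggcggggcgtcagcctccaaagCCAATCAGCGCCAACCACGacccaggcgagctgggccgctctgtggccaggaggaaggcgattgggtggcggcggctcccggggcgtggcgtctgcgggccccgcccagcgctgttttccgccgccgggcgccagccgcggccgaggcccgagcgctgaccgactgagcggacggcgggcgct
Dnajb11: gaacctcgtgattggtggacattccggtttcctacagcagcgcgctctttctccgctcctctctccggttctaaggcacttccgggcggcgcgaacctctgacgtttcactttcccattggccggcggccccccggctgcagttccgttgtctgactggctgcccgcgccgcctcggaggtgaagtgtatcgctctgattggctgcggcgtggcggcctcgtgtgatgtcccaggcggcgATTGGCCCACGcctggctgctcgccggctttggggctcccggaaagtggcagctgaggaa
Dnajb1: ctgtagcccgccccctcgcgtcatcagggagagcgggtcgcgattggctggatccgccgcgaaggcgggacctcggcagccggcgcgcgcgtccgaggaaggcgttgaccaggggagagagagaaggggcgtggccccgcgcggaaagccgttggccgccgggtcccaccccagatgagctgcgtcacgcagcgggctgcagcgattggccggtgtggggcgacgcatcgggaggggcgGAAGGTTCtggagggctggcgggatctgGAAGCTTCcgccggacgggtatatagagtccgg
Hspb1: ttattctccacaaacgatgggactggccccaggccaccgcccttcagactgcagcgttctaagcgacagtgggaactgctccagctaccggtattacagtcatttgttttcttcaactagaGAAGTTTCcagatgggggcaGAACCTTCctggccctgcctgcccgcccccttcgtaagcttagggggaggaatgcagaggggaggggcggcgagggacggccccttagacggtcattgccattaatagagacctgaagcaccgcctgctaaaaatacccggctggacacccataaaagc
Hspe1: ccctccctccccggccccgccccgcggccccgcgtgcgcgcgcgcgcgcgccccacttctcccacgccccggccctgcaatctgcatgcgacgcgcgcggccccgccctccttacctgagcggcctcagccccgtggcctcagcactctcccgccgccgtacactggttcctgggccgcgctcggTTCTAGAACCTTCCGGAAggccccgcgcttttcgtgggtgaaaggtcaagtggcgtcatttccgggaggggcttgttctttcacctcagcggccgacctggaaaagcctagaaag
These windows lie at chr3:38452766-38453065 (plus strand, Hspa5), chr7:23012244-23012543 (minus, Hsp90b1), chr15:102432417-102432716 (plus, Dnajc3), chr11:91672751-91673050 (minus, Dnajb11), chr19:41431092-41431391 (minus, Dnajb1), chr12:26432252-26432551 (minus, Hspb1) and chr9:64084077-64084376 (plus, Hspe1). The ER stress response element stood at −43 to −25 in Hspa5, at −176 to −158 and, on the other strand, at −72 to −54 in Hsp90b1, and at −133 to −115 in Dnajc3, counted from the start site at 1. No other member with a window held it, and of all 27457 genes with a window 21 held it (0.0765%). Dnajb11 alone among members held the second form, at −10 to 1, which stood in 0.0619% of all genes with a window. The 3-unit heat shock element stood in the windows of Dnaja1, Hspa8, Hspd1 and Hspe1 and in 0.794% of all genes with a window. Hspe1 and Hspd1 lie head to head, and their windows share 211 bases. The 2-unit form stood in 13 of the 63 members with a window and in 9.09% of all genes with one. Among these members were Dnajb1 (−11 to −4 and 18 to 25) and Hspb1 (−129 to −122 and −109 to −102) with a pair of matches each. A match describes letters and not a bound site.

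The libraries were not equal. Mitochondrially encoded genes took 37.7% of the summed FPKM in ALI 1 and 17.1% in SJY 1, against 5.19% to 14.1% in the other 13. A typical gene stood lower in those libraries. The median ratio of a gene to its geometric mean over all libraries was 0.714 in ALI 1 and 0.835 in SJY 1, the lowest values. Not every gene was lower there, and the members' summed level was 3413 FPKM in ALI 1 and 3876 FPKM in SJY 1, the highest of all libraries. Lung identity was clear from 7 epithelial markers, whose summed level had a median of 29437 FPKM in SJY lungs (26519 to 33344), 22201 FPKM in ALI lungs (12955 in ALI 1 and 22060 to 26180 in the others) and 36902 FPKM in control lungs (27629 to 39155), with 1 of the 7 lower in SJY and 4 in ALI lungs than in control. The 10 neutrophil markers summed to 8399.6 to 14858 FPKM in SJY lungs, 2239 to 23300 FPKM in ALI lungs and 151 to 248 FPKM in control lungs; the highest ALI sum was that of ALI 1, and ALI 2 to 5 reached at most 7305 FPKM. Of these markers, 9 of 9 tested were called higher in both LPS groups than in control, and Ngp, not tested, stood at 0.14 to 0.804 FPKM in SJY lungs, 0.406 to 0.625 FPKM in ALI lungs and 0.214 to 7.95 FPKM in control lungs. In bulk lung, fewer cells of a type and less RNA per cell cannot be told apart, and the part of these shifts in cell makeup in the chaperone results was not tested. Adjusted p-values below are from limma on log2(FPKM + 1) with all 3 groups in the fit, Benjamini-Hochberg adjusted over all 13457 genes, and a gene is said to have risen or fallen at an adjusted p under 0.05. Differences are on that log2 scale with limma's SE, means are of FPKM with the SD over 5 libraries, and libraries are listed in the order SJY 1, 3, 4, 5 and 6, ALI 1 to 5 and control 4 to 8. Losses of a call named gene by gene leave out the fit with the replicate number as a block. That fit is given at the end, and most calls were lost in it.

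Chaperone transcripts were abundant. The 7 members with a mean of at least 100 FPKM over all libraries were Hspa8 (578 FPKM), Hsp90ab1 (562), Hspb1 (310.2), Hsp90b1 (229), Hspa5 (225), Hspe1 (161) and Dnaja1 (109), and together they held 61.3% of the members' summed level. A further 43 members averaged 10 to 100 FPKM, 22 averaged 1 to 10 FPKM and 8 were lower. The members together took 0.641% to 0.716% of the FPKM outside mitochondrially encoded genes in SJY lungs, 0.620% to 0.783% in ALI lungs and 0.715% to 0.850% in control lungs. The highest SJY share barely exceeded the lowest control share. In summed FPKM the groups overlapped, with 3263 to 3876 FPKM in SJY lungs, 3169 to 3710 FPKM in ALI lungs and 3254 to 3810 FPKM in control lungs. The lower SJY share is thus not a lower summed level of the members.

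Against control, members moved in both directions. In ALI lungs 15 of 72 tested members changed (20.8%; 29 at an unadjusted p under 0.05, against 35% of all genes), 6 higher and 9 lower, against 17.6% of all genes tested (8.02% higher and 9.56% lower). In SJY lungs 29 of 72 changed (40.3%; 34 at an unadjusted p under 0.05, against 43.6% of all genes), 12 higher and 17 lower, against 32.6% of all genes (14.6% higher and 18.1% lower). Both shares are near their backgrounds, so the number of changed members is not in itself a result about chaperones. The members' median difference was −0.08 in ALI lungs and −0.01 in SJY lungs, beside −0.12 and −0.11 over all genes tested. These 2 comparisons share their control libraries. Median-of-ratios scaling, which brought the median of all genes to 0.00 in both comparisons, gave 7 higher and 7 lower members for ALI and 14 higher and 12 lower for SJY. Making the FPKM outside mitochondrially encoded genes sum equally gave 6 higher and 13 lower for ALI and 6 higher and 24 lower for SJY. Without ALI 1, the comparison of ALI with control gave 7 higher and 10 lower, and without SJY 1 that of SJY with control gave 10 and 10. The 17 lower members of SJY lungs became 11, 8, 10 and 9 without control 5, 6, 7 and 8 in turn, and the 12 higher became 8 without SJY 4 or without control 7.

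**Figure D1:**
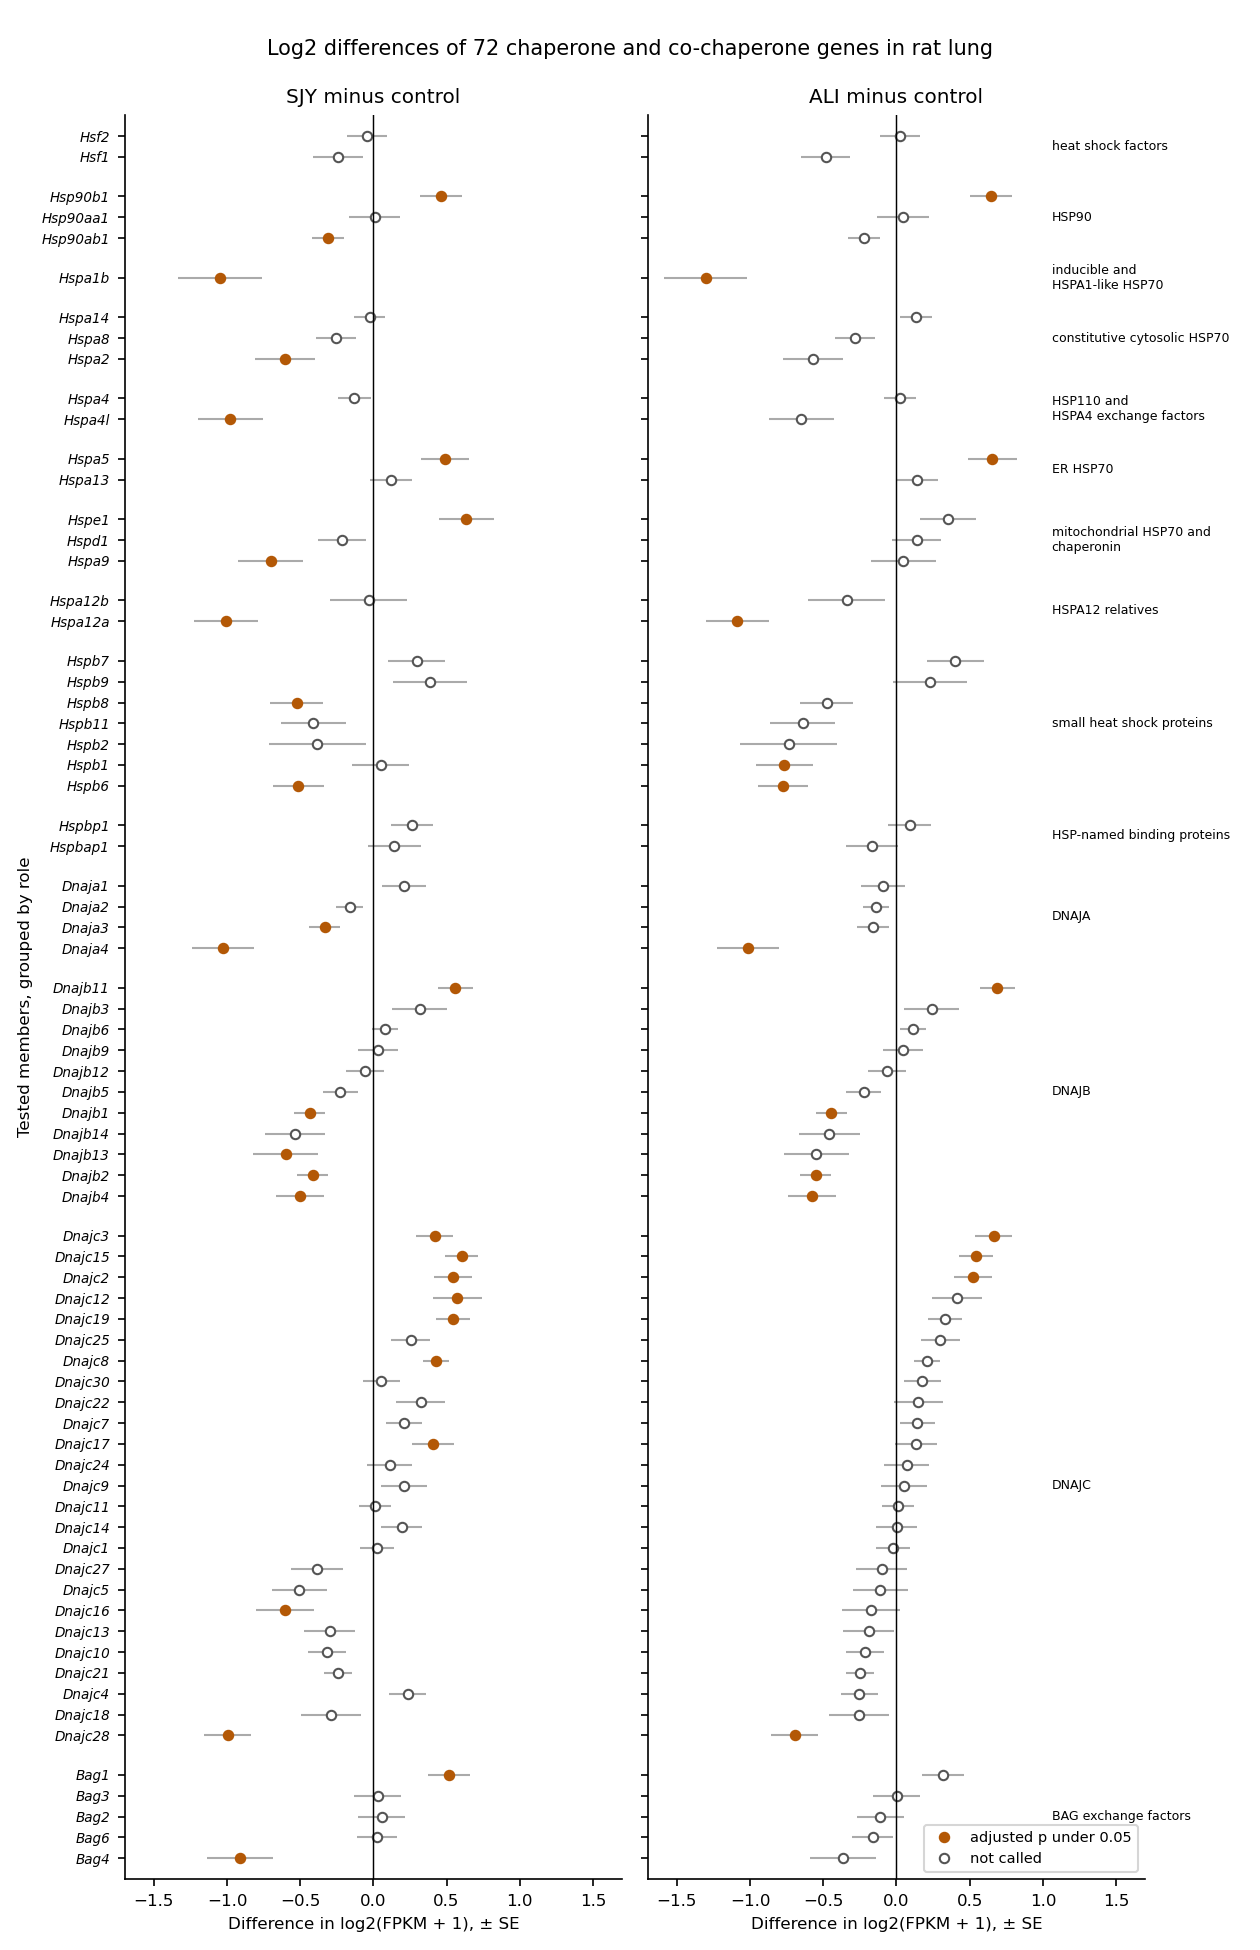
Difference in log2(FPKM + 1) from control for the 72 tested members, grouped by role, in SJY lungs (left) and ALI lungs (right). Points are limma estimates from 5 libraries a group, bars are 1 SE, and filled points are called at an adjusted p under 0.05. Filled points to the right of 0 in both panels include Hspa5, Hsp90b1, Dnajb11 and Dnajc3, and those farthest to the left include Hspa1b, Hspa12a and Dnaja4.

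4 ER chaperones rose in both LPS groups. Dnajb11 (ERdj3), the abundant soluble DnaJ partner of BiP, had 49.1, 53, 51.6, 48.6 and 53.3 FPKM in SJY lungs, 65.7, 48.7, 64.1, 58.1 and 46.1 FPKM in ALI lungs and 42.4, 28.7, 34.4, 32.8 and 34.8 FPKM in control lungs. All 5 SJY and all 5 ALI values lay above the highest control value. The difference from control was 0.69 ± 0.12 SE, adjusted p = 0.00136 in ALI lungs and 0.56 ± 0.12 SE, adjusted p = 0.00298 in SJY lungs. Dnajc3 (P58IPK), an ER-lumenal DnaJ protein that also restrains the kinase PERK, had 35, 39.4, 40.2, 33.5 and 36.4 FPKM in SJY lungs, 40.6, 36.4, 57.3, 46.2 and 41.2 FPKM in ALI lungs and 23.7, 23.5, 32.1, 27.5 and 30.8 FPKM in control lungs. Again neither LPS group overlapped control. Dnajc3 differed from control by 0.66 ± 0.13 SE, adjusted p = 0.00273 in ALI lungs and 0.42 ± 0.13 SE, adjusted p = 0.0204 in SJY lungs, and the SJY call was lost without SJY 4 or control 5 (adjusted p from 0.0506 to 0.0524). All 5 ALI libraries lay above all 5 control libraries in 4 of 72 tested members, against 6.17% of all genes tested, and all 5 SJY libraries did so in 10 of 72, against 11.8%. Both shares are near those of all genes.

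Hspa5 (BiP), the HSP70 of the ER lumen, had 244, 250.4, 234, 222 and 224 FPKM in SJY lungs, 258, 214, 331, 348 and 198 FPKM in ALI lungs and 212, 138, 187, 135 and 175 FPKM in control lungs. The SJY values all exceeded control, whereas ALI 5 at 198 FPKM lay below control 4 at 212 FPKM. Hspa5 averaged 235 ± 12.5 FPKM in SJY lungs, 269.9 ± 67.7 FPKM in ALI lungs and 169 ± 32.9 FPKM in control lungs, with differences from control of 0.66 ± 0.17 SE, adjusted p = 0.014 in ALI lungs and 0.49 ± 0.17 SE, adjusted p = 0.0327 in SJY lungs. The ALI call was lost in a fit without the SJY libraries (adjusted p = 0.0539), and the SJY call without SJY 1, 3 or 4 or control 5, 7 or 8 (adjusted p from 0.0528 to 0.0901). Hsp90b1 (GRP94), the HSP90 of the ER, which folds integrins and Toll-like receptors, had 271, 241, 265, 204 and 216 FPKM in SJY lungs, 230.3, 252, 347, 293 and 245 FPKM in ALI lungs and 197, 135, 189, 155 and 197 FPKM in control lungs. Every SJY and ALI value lay above every control value. Hsp90b1 differed by 0.64 ± 0.14 SE, adjusted p = 0.00673 in ALI lungs and 0.46 ± 0.14 SE, adjusted p = 0.0222 in SJY lungs, where the call was lost without SJY 1 or 4 or control 5 or 7 (adjusted p from 0.0557 to 0.0608). With FPKM outside mitochondrially encoded genes made equal, the SJY calls of Hspa5, Hsp90b1 and Dnajc3 were lost (adjusted p = 0.113, 0.0785 and 0.129).

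**Figure D2:**
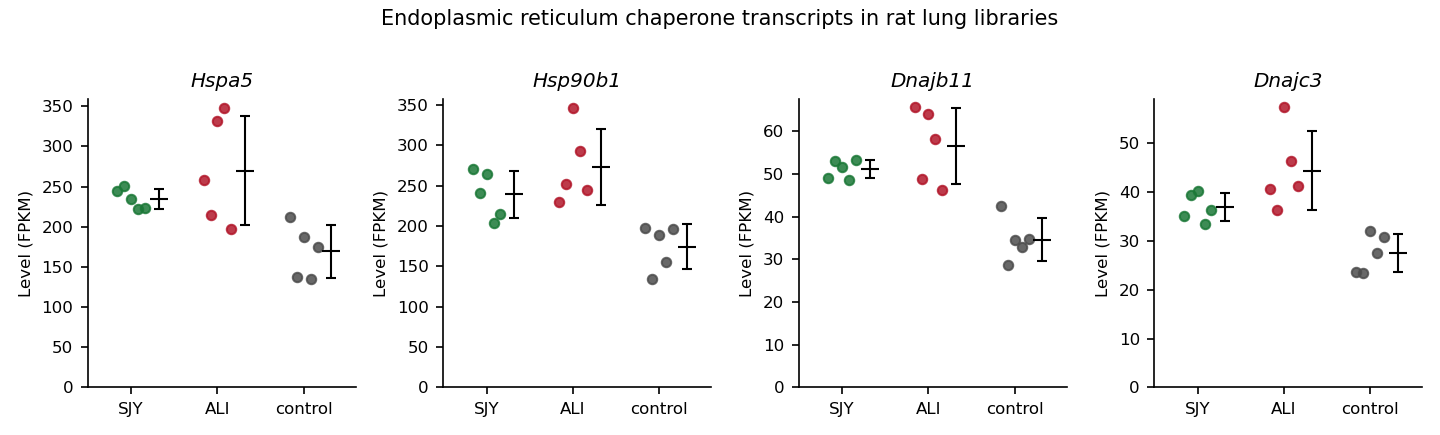
FPKM of 4 ER chaperone genes in each library of SJY, ALI and control lungs; points are libraries, and bars are the mean ± SD of 5. Dnajb11, Dnajc3 and Hsp90b1 lie above all control libraries in every SJY and ALI library, while the ALI values spread more widely than the SJY values.

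Hspa13, Dnajb9, Dnajb14, Dnajc1 and Dnajc10, also of the ER, were not called. Not every member was assigned a compartment, so members described below without one may also belong to the ER, whether called or not. Dnajb14, of the ER membrane, differed by −0.46 in ALI and −0.54 in SJY lungs (adjusted p = 0.1285 and 0.0584), with every SJY value below control. Hspa13 (Stch), a microsome-associated HSP70 relative, stood at 9.23 to 14.1 FPKM in SJY lungs, 9.58 to 14 FPKM in ALI lungs and 7.61 to 11.5 FPKM in control lungs. Dnajb9 (ERdj4), a classic XBP1 target, stood at 14.2 to 20.1 FPKM in SJY lungs, 13.7 to 20.2 FPKM in ALI lungs and 12.7 to 18.8 FPKM in control lungs, with differences of 0.04 in ALI and 0.03 in SJY lungs (adjusted p = 0.84 and 0.873). Dnajc1, an ER-membrane DnaJ protein, differed by −0.02 and 0.03 (adjusted p = 0.905 and 0.887). Dnajc10 (ERdj5), an ER disulfide reductase, had 19.4 to 20.4 FPKM in SJY lungs, 16.6 to 26.8 FPKM in ALI lungs and 20.5 to 28.4 FPKM in control lungs. Its differences of −0.21 in ALI and −0.32 in SJY lungs did not pass (adjusted p = 0.249 and 0.0735), although all 5 SJY values lay under the lowest control value. Their windows, where given, held neither ER stress response element.

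Hspa5, Hsp90b1 and Dnajb11 were each set against a cytosolic relative in the same library, a ratio that no scaling of libraries can change. Hspa5 stood at 0.375 to 0.512 of Hspa8 in SJY lungs, 0.372 to 0.602 in ALI lungs and 0.227 to 0.335 in control lungs. Hsp90b1 stood at 0.419 to 0.505 of Hsp90ab1 in SJY lungs, 0.414 to 0.624 in ALI lungs and 0.215 to 0.338 in control lungs. Dnajb11 was 2.01 to 2.67 times Dnajb1 in SJY lungs, 1.80 to 3.43 times in ALI lungs and 0.925 to 1.35 times in control lungs. In all 3 ratios every SJY and every ALI library lay above every control library, and SJY and ALI libraries overlapped. The numerators rose in both LPS groups, Dnajb1 fell in both and Hsp90ab1 fell in SJY lungs, while Hspa8 was not called. Separation of the ratios therefore follows in part from those results and is no further support. These ratios are a description and carry no test.

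**Figure D3:**
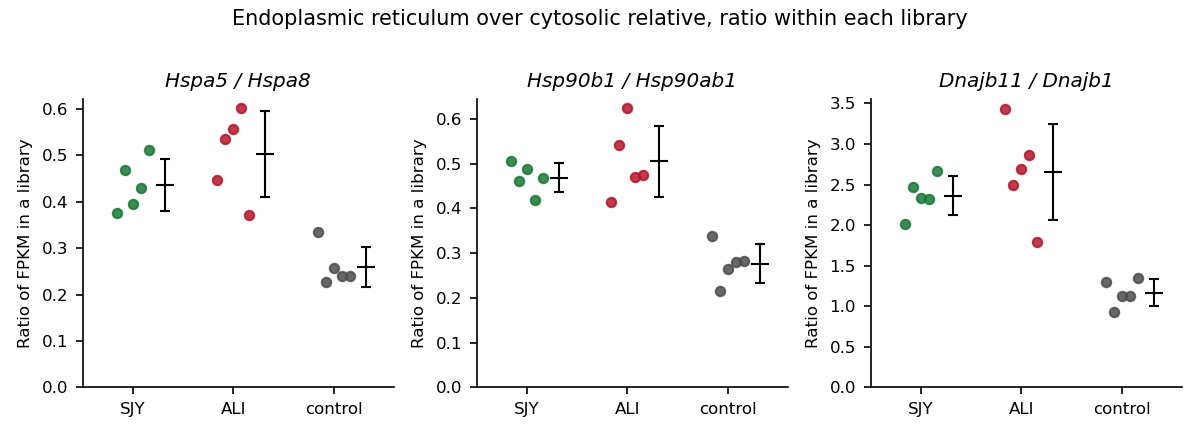
Ratio of the FPKM of an ER chaperone to that of its cytosolic relative within each library, for Hspa5 over Hspa8, Hsp90b1 over Hsp90ab1 and Dnajb11 over Dnajb1; points are libraries, and bars are the mean ± SD of 5. Control libraries reach at most 0.335, 0.338 and 1.35, under every SJY and ALI library.

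Non-member genes of ER folding and the unfolded protein response gave a mixed picture. In ALI lungs 9 of 28 tested rose and 1 fell, with a median of 0.11 beside −0.12 for all genes, and in SJY lungs 8 rose and 4 fell, with a median of 0.12 beside −0.11. Shares of all genes tested were 8.02% higher and 9.56% lower in ALI lungs, and 14.6% and 18.1% in SJY lungs. Sdf2l1, a partner of the BiP and Dnajb11 complex, averaged 40.6 ± 5.84 FPKM in SJY lungs, 46.9 ± 11.3 FPKM in ALI lungs and 19.9 ± 4.02 FPKM in control lungs, a difference of 1.19 ± 0.16 SE, adjusted p = 0.000191 in ALI and 1 ± 0.16 SE, adjusted p = 0.000431 in SJY lungs. Calr (calreticulin), the lectin chaperone, averaged 603 ± 74.7 FPKM in SJY lungs, 583 ± 83.9 FPKM in ALI lungs and 299.7 ± 43.3 FPKM in control lungs, with 0.96 in ALI and 1.01 in SJY lungs (adjusted p = 0.000247 and 9.17e-05). Pdia4, a disulfide isomerase, rose by 0.78 in ALI and 0.69 in SJY lungs (adjusted p = 0.00549 and 0.00632), and Manf, a secreted ER stress protein, by 0.69 and 0.84 (adjusted p = 0.0111 and 0.00194). Creld2 rose by 0.81 in ALI lungs (adjusted p = 0.0191) and differed by 0.57 in SJY lungs (adjusted p = 0.0561). Ddit3 (CHOP), the stress transcription factor, averaged 40.8 ± 6.94 FPKM in SJY lungs, 24.9 ± 2 FPKM in ALI lungs and 24.8 ± 4 FPKM in control lungs and rose in SJY lungs (0.70 ± 0.13 SE, adjusted p = 0.00119). Its ALI difference of 0.02 did not pass (adjusted p = 0.937).

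Other genes of this list fell. In SJY lungs the sensors Atf6 (−0.84) and Ern1 (−0.57), the mannosidase-like Edem1 (−1.27) and Herpud1 (−0.70), both of ER-associated degradation, were lower than in control (adjusted p = 0.0136, 0.0439, 0.0017 and 0.0127), while Selenos, also of ER-associated degradation, rose (0.36, adjusted p = 0.0254). In ALI lungs Trib3, a pseudokinase target of ATF4 and CHOP, fell by 0.63 on the log2 scale (adjusted p = 0.0311). Of the 9 list genes that rose in ALI lungs and had a window, members included (Dnajb11 was not on the list), 6 held an ER stress response element of either form (Calr, Creld2, Dnajc3, Hsp90b1, Hspa5 and Hyou1). Of the 16 tested list genes with a window that did not rise, 3 held one (Canx, Herpud1 and Xbp1), and over all 27457 genes with a window the share was 0.138%. The list was drawn up from genes of ER folding and the unfolded protein response, so these shares are a description. Whether the elements had a part in the rises was not tested.

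Several cytosolic chaperone genes fell, led in size by Hspa1b, the stress-inducible HSP70. Hspa1b had 4.20, 2.59, 2.23, 3.60 and 1.96 FPKM in SJY lungs, 1.18, 2.30, 3.24, 2.35 and 2.32 FPKM in ALI lungs and 8.55, 9.49, 12, 4.78 and 3.13 FPKM in control lungs. Control values ranged widely, and control 8 at 3.13 FPKM overlapped both LPS groups. The difference was −1.30 ± 0.29 SE, adjusted p = 0.00639 in ALI lungs and −1.05 ± 0.29 SE, adjusted p = 0.0115 in SJY lungs, and both calls held without each library in turn. No gene is listed under the symbol of its near copy Hspa1a, so how reads of the 2 copies were counted is not known. Hspa1l, its testis-rich neighbour, had 0.352, 0.0304, 0.241, 0.368 and 0.216 FPKM in SJY lungs, 0.124, 0.222, 0.252, 0.208 and 0.378 FPKM in ALI lungs and 0.619, 0.36, 0.205, 0.557 and 0.613 FPKM in control lungs, too low to test. Hsf1, the factor that induces these genes, had 21.9, 26.7, 22.3, 23.3 and 27.8 FPKM in SJY lungs, 12.8, 22.9, 27.2, 20.9 and 21 FPKM in ALI lungs and 33.4, 34.7, 28.6, 26.8 and 22.7 FPKM in control lungs. Its differences from control did not pass (−0.48 ± 0.17 SE, adjusted p = 0.0577 in ALI lungs, −0.24 ± 0.17 SE, adjusted p = 0.287 in SJY lungs), and the groups overlapped. Hsf2, a second heat shock factor, had 5.83, 7.44, 9.34, 6.77 and 7.75 FPKM in SJY lungs, 6.25, 8.04, 7.32, 8.83 and 8.51 FPKM in ALI lungs and 9.29, 6.78, 7.37, 7.46 and 7.33 FPKM in control lungs. The 3 groups overlapped (0.921 and 0.831 as adjusted p for ALI and SJY against control).

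Among DnaJ proteins of the cytosol, Dnajb1 (HSP40), the main partner of inducible HSP70, had 24.4, 21.5, 22.1, 20.9 and 19.9 FPKM in SJY lungs, 19.1, 19.6, 23.8, 20.3 and 25.7 FPKM in ALI lungs and 32.6, 31.1, 30.4, 29.2 and 25.8 FPKM in control lungs. Every SJY and ALI value lay under the lowest control value, although control 8 at 25.8 FPKM lay only just above ALI 5 at 25.7 FPKM. The differences were −0.45 ± 0.11 SE, adjusted p = 0.0106 in ALI lungs and −0.44 ± 0.11 SE, adjusted p = 0.00649 in SJY lungs, and both calls were lost with median-of-ratios scaling (adjusted p = 0.0992 and 0.0618). Dnaja4, a type A DnaJ protein, had 17.1, 29.4, 31.7, 36.2 and 28.8 FPKM in SJY lungs, 18.8, 22.6, 31.7, 28.9 and 44.9 FPKM in ALI lungs and 50.8, 54.6, 57.7, 60.5 and 66.2 FPKM in control lungs. The highest value of either LPS group, 44.9 FPKM in ALI 5, lay under the lowest control value of 50.8 FPKM. Dnaja4 differed by −1.01 ± 0.21 SE, adjusted p = 0.00488 in ALI lungs and −1.02 ± 0.21 SE, adjusted p = 0.00241 in SJY lungs. All 5 ALI libraries lay below all 5 control libraries in 7 of 72 tested members, against 6.73% of all genes, and all 5 SJY libraries did so in 15 of 72, against 15.9%.

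Dnajb2, a DnaJ protein with ubiquitin-interacting motifs, had 24.5, 33.5, 30.3, 34 and 33.3 FPKM in SJY lungs, 29.6, 25.4, 25.8, 29.1 and 30.6 FPKM in ALI lungs and 42.5, 46.5, 41.6, 40.8 and 37 FPKM in control lungs. Neither LPS group overlapped control, and the differences were −0.55 ± 0.11 SE, adjusted p = 0.00286 in ALI and −0.42 ± 0.11 SE, adjusted p = 0.00849 in SJY lungs, the SJY call being lost with median-of-ratios scaling (adjusted p = 0.0776). Dnajb4, a heat-inducible relative of Dnajb1, had 27.3, 29, 27.6, 29.1 and 25.3 FPKM in SJY lungs, 17.1, 27.5, 26.1, 32.3 and 30.2 FPKM in ALI lungs and 49.1, 28.1, 44.6, 37.1 and 41.8 FPKM in control lungs. Control 5 at 28.1 FPKM lay within both LPS groups. Dnajb4 differed by −0.58 ± 0.16 SE, adjusted p = 0.0246 in ALI and −0.50 ± 0.16 SE, adjusted p = 0.0292 in SJY lungs. Its ALI call was lost without control 6 or 8 (adjusted p from 0.0561 to 0.063) and, without the SJY libraries, at an adjusted p of 0.0739. The SJY call was lost without SJY 1, 4 or 6 or control 4, 6 or 8 (adjusted p from 0.0526 to 0.0723). Over the whole class, 1 of 4 tested DNAJA members fell in ALI lungs and 2 in SJY lungs, and of 11 tested DNAJB members 1 rose and 3 fell in ALI lungs and 1 rose and 4 fell in SJY lungs. Beside these, 8.02% of all genes tested rose and 9.56% fell in ALI lungs, and 14.6% and 18.1% in SJY lungs. Dnaja1 (HDJ2), an abundant HSP70 partner, stood at 108 to 143 FPKM in SJY lungs, 80.1 to 113 FPKM in ALI lungs and 76.1 to 137 FPKM in control lungs and was not called (adjusted p = 0.693 in ALI lungs and 0.309 in SJY lungs). Dnaja2 stood at 50.3 to 57.1 FPKM in SJY lungs, 54 to 60.1 FPKM in ALI lungs and 52.4 to 68.8 FPKM in control lungs, likewise uncalled (adjusted p = 0.28 and 0.174). Dnajb14, an ER-membrane DnaJ protein, lay at 3.71 to 6.12 FPKM in SJY lungs, 2.80 to 7.58 FPKM in ALI lungs and 6.76 to 9.89 FPKM in control lungs, with every SJY value below control but no call (−0.54 ± 0.21 SE, adjusted p = 0.0584). Dnajb3, Dnajb5 and Dnajb12 were not called and overlapped control in both LPS groups.

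**Figure D4:**
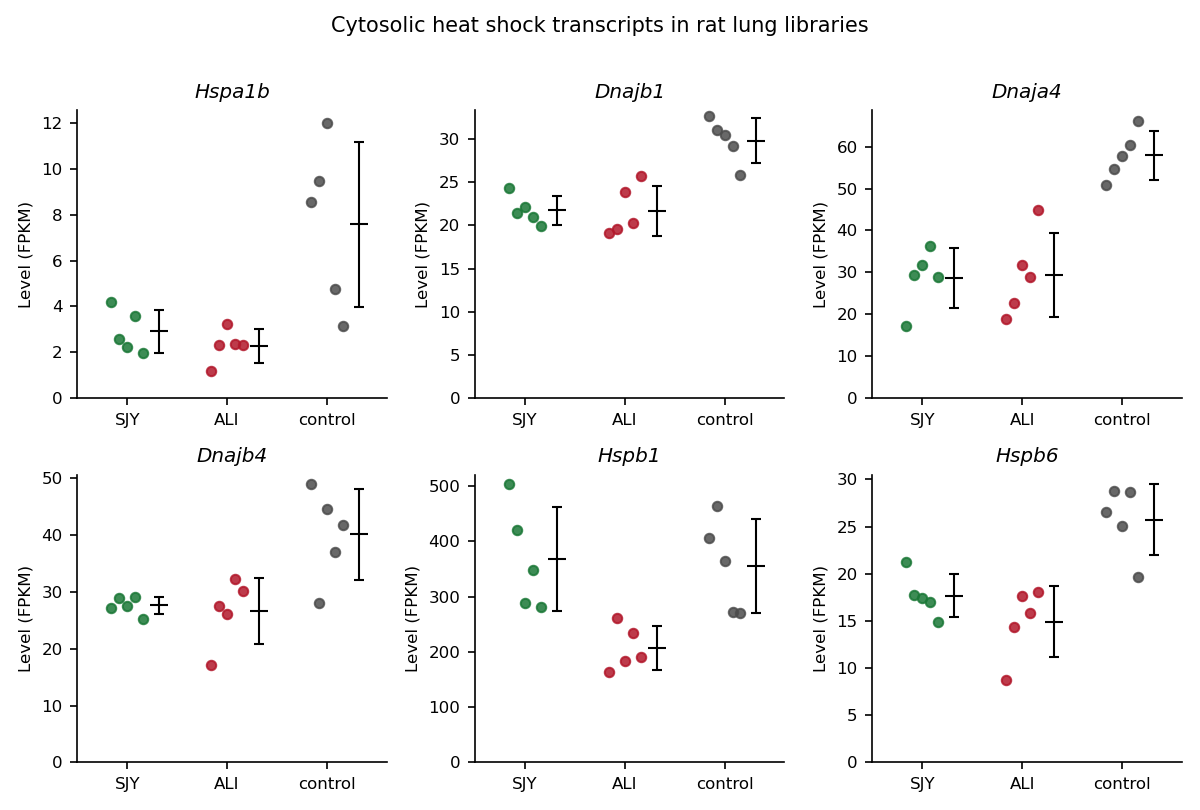
FPKM of 6 cytosolic heat shock genes in each library of SJY, ALI and control lungs; points are libraries, and bars are the mean ± SD of 5. Dnajb1 and Dnaja4 lie below every control library in both LPS groups, while Hspb1 is low in ALI lungs and overlaps the control range in SJY lungs.

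Small heat shock proteins, which hold unfolding clients without ATP, had 7 tested members. In ALI lungs 2 fell and none rose, and in SJY lungs 2 fell and none rose, with medians of −0.64 and −0.38. Of all genes tested, 9.56% fell and 8.02% rose in ALI lungs, and 18.1% and 14.6% in SJY lungs. Hspb1 (HSP27), the main small heat shock protein of lung and a regulator of actin, had 504, 421, 288, 348 and 282 FPKM in SJY lungs, 164, 261, 184, 233 and 191 FPKM in ALI lungs and 407, 464, 365, 271 and 270.4 FPKM in control lungs. All ALI values lay under the lowest control value of 270.4 FPKM and under the lowest SJY value of 282 FPKM, while the SJY and control ranges overlapped in part. Hspb1 fell in ALI lungs (−0.77 ± 0.20 SE, adjusted p = 0.0147), a call lost with median-of-ratios scaling (adjusted p = 0.0624). The SJY difference from control was 0.05 (adjusted p = 0.867).

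Hspb6 (HSP20), a small heat shock protein of smooth and striated muscle, had 21.3, 17.8, 17.5, 17 and 14.9 FPKM in SJY lungs, 8.74, 14.3, 17.6, 15.9 and 18.1 FPKM in ALI lungs and 26.6, 28.7, 25.1, 28.6 and 19.6 FPKM in control lungs. The highest ALI value, 18.1 FPKM, lay under the lowest control value of 19.6 FPKM, and SJY 1 overlapped control. Hspb6 differed by −0.77 ± 0.17 SE, adjusted p = 0.00707 in ALI and −0.51 ± 0.17 SE, adjusted p = 0.0326 in SJY lungs, the SJY call being lost without SJY 3, 4, 5 or 6 or control 4, 5, 6 or 7 (adjusted p from 0.053 to 0.078). Hspb8 (HSP22), which works with Bag3 in autophagy of misfolded proteins, had 16.1, 18.7, 16.9, 20.1 and 18.3 FPKM in SJY lungs, 21.8, 12.6, 12.9, 27.9 and 22.3 FPKM in ALI lungs and 27.7, 27.3, 24.6, 25.2 and 27 FPKM in control lungs. All SJY values lay below control, and the ALI values reached from below control to above it. Hspb8 fell in SJY lungs (−0.53 ± 0.18 SE, adjusted p = 0.0341), a call lost without SJY 1, 3, 4 or 6 or control 4, 5, 6, 7 or 8 (adjusted p from 0.0531 to 0.0733) and under median-of-ratios scaling (adjusted p = 0.125), and its ALI difference was −0.48 (adjusted p = 0.0732).

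None of the other 4 tested small heat shock members passed in either LPS group. Hspb2, a muscle-rich form, stood at 17.8 to 35.3 FPKM in SJY lungs, 5.69 to 31.7 FPKM in ALI lungs and 24.4 to 41.5 FPKM in control lungs and lies next to Cryab, with which it overlaps in the GRCr8 list, so their reads may not be told apart. Hspb11 (IFT25), an intraflagellar transport subunit, stood at 7 to 11.4 FPKM in SJY lungs, 3.53 to 9.85 FPKM in ALI lungs and 10.5 to 14 FPKM in control lungs and differed by −0.64 in ALI lungs (adjusted p = 0.0552). Hspb11 lay wholly below control in ALI lungs. Hspb7 ranged over 2.68 to 4.42 FPKM in SJY lungs, 2.74 to 5.51 FPKM in ALI lungs and 1.47 to 3.65 FPKM in control lungs, and Hspb9 over 0.119 to 2.18 FPKM in SJY lungs, 0.827 to 1.29 FPKM in ALI lungs and 0.366 to 1.58 FPKM in control lungs. The 8 smooth muscle markers, a cell type that expresses Hspb6, summed to 526 to 768 FPKM in SJY lungs, 199 to 755 FPKM in ALI lungs and 480.03 to 885 FPKM in control lungs, and none of the 8 was called in either LPS group. ALI 1 alone gave the lowest ALI sum, with 649 to 755 FPKM in the other 4 ALI libraries, and was also the lowest ALI library for Hspb6 and Hspb2. Of 11 heart muscle markers 4 were tested, Myl4 rose in both LPS groups, and the other 7, Myh6 and Nppa among them, were at or near 0 in most libraries; the part of muscle cells in these results was not tested.

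Of the most abundant cytosolic chaperones, Hsp90ab1 was called in SJY lungs and Hspa8 in neither LPS group. Hspa8 (HSC70), the housekeeping HSP70, stood at 437 to 651 FPKM in SJY lungs, 401 to 594 FPKM in ALI lungs and 559.5 to 729 FPKM in control lungs, with differences of −0.28 ± 0.14 SE, adjusted p = 0.152 in ALI and −0.26 ± 0.14 SE, adjusted p = 0.163 in SJY lungs, neither called. Hsp90ab1, the constitutive cytosolic HSP90, stood at 459.8 to 544 FPKM in SJY lungs, 466 to 622 FPKM in ALI lungs and 553 to 714 FPKM in control lungs. SJY lungs lay wholly below control. Hsp90ab1 fell in SJY lungs (−0.31 ± 0.11 SE, adjusted p = 0.0373) and did not pass in ALI lungs (−0.22 ± 0.11 SE, adjusted p = 0.151). The SJY call was lost without SJY 3, 5 or 6 or control 5, 6 or 8 (adjusted p from 0.0596 to 0.0992) and under median-of-ratios scaling (adjusted p = 0.384). Hsp90aa1, the inducible cytosolic HSP90, was listed at only 2.15 to 3.26 FPKM in SJY lungs, 1.88 to 3.80 FPKM in ALI lungs and 1.68 to 3.47 FPKM in control lungs. The GRCr8 gene list names 16 pseudogenes after Hsp90aa1, 23 after Hsp90ab1 and 33 after Hspa8, so reads of these genes may have been split with near-identical copies, and their levels are uncertain. Hspa14, a ribosome-associated HSP70, stood at 12.3 to 15.9 FPKM in SJY lungs, 14.9 to 16.4 FPKM in ALI lungs and 12 to 16.9 FPKM in control lungs, and the HSP70 exchange factor Hspbp1 at 30.1 to 35.3 FPKM in SJY lungs, 21.8 to 41 FPKM in ALI lungs and 22.4 to 31.8 FPKM in control lungs, neither called. Hspbap1, taken in by its symbol, stood at 5.46 to 6.58 FPKM in SJY lungs, 2.51 to 6.63 FPKM in ALI lungs and 4.85 to 6.59 FPKM in control lungs and was not called.

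Further HSP70 relatives were lower in SJY lungs. Hspa12a, an atypical and distant HSP70 relative, had 2.76, 2.40, 2.17, 2.85 and 2.37 FPKM in SJY lungs, 1.08, 1.75, 2.37, 3.21 and 3.93 FPKM in ALI lungs and 3.87, 7.51, 6.13, 6.17 and 7.15 FPKM in control lungs. All SJY values lay under the lowest control value, and ALI 5 at 3.93 FPKM just exceeded control 4 at 3.87 FPKM. Hspa12a differed by −1.09 ± 0.22 SE, adjusted p = 0.00344 in ALI and −1.01 ± 0.22 SE, adjusted p = 0.00307 in SJY lungs. Its paralog Hspa12b, an endothelial gene, stood at 48.3 to 72.5 FPKM in SJY lungs, 19.7 to 65.6 FPKM in ALI lungs and 49.4 to 85.7 FPKM in control lungs and did not pass (adjusted p = 0.363 and 0.935 in ALI and SJY lungs). Hspa2, a testis-rich HSP70, had 2.56, 1.61, 3.18, 3.30 and 1.78 FPKM in SJY lungs, 1.28, 2.11, 3.82, 2.68 and 3.21 FPKM in ALI lungs and 3.48, 4.25, 5.20, 4.13 and 4.06 FPKM in control lungs. SJY lungs lay wholly below control, and ALI 3 overlapped it. Hspa2 fell in SJY lungs (−0.61 ± 0.21 SE, adjusted p = 0.0343), a call lost without SJY 1, 3 or 6 or control 5, 6, 7 or 8 (adjusted p from 0.053 to 0.0908), with −0.57 ± 0.21 SE, adjusted p = 0.0663 in ALI lungs.

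Hspa4l (APG1), an HSP110-type exchange factor, had 0.711, 0.526, 1.74, 0.999 and 1.11 FPKM in SJY lungs, 1.48, 0.784, 2.43, 1.41 and 1.58 FPKM in ALI lungs and 1.88, 2.02, 2.84, 4.08 and 4.25 FPKM in control lungs. SJY values all lay under the lowest control value of 1.88 FPKM. Hspa4l fell in SJY lungs (−0.98 ± 0.22 SE, adjusted p = 0.00415), and its ALI difference did not pass (−0.65 ± 0.22 SE, adjusted p = 0.0539). Hspa4 (APG2), its abundant paralog, stood at 31.6 to 41.4 FPKM in SJY lungs, 36 to 48.9 FPKM in ALI lungs and 35.1 to 45.9 FPKM in control lungs without a call in either group (adjusted p = 0.903 for ALI and 0.387 for SJY). The third HSP110 gene, Hsph1, which is not a member, averaged 25.4 ± 3.80 FPKM in SJY lungs, 32.2 ± 10.8 FPKM in ALI lungs and 39.5 ± 5.33 FPKM in control lungs and fell in SJY lungs (−0.62 ± 0.19 SE, adjusted p = 0.0236).

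A list of HSP110 genes, partners of HSP70 and HSP90 and related genes outside the members had 24 tested genes. Besides cytosolic partners it held the small heat shock gene Cryab, the heat shock factor Hsf4, and Trap1 and Tomm70 of mitochondria. Its counts and medians therefore do not describe cytosolic partners alone. In ALI lungs none rose and 3 fell (against 8.02% and 9.56% of all genes tested), with a median of −0.07. These were Cryab (alphaB-crystallin, a small heat shock protein, −1.56 ± 0.33 SE, adjusted p = 0.00512), Hsf4 (−1.13 ± 0.23 SE, adjusted p = 0.00429) and Fkbp4 (an HSP90 co-chaperone, −0.57 ± 0.10 SE, adjusted p = 0.00163). In SJY lungs 2 rose and 5 fell (against 14.6% and 18.1% of all genes tested), with a median of −0.05. The HSP90 co-chaperones Sugt1 (0.78) and Ahsa1 (0.33) rose, and Cryab (−1.12), Hsf4 (−0.70), Tomm70 (−0.67), Hsph1 (−0.62) and Fkbp4 (−0.44) fell. Cryab averaged 55 ± 19.3 FPKM in SJY lungs, 43 ± 18.7 FPKM in ALI lungs and 115 ± 9.61 FPKM in control lungs. Of 14 tested genes of the cytosolic chaperonin TRiC and its partner prefoldin, 1 rose in ALI lungs (Pfdn4, 0.57 ± 0.18 SE, adjusted p = 0.0371) and 7 rose in SJY lungs, with none lower. Among all genes tested, 8.02% rose in ALI lungs and 14.6% in SJY lungs. The largest rises in SJY lungs were in prefoldin subunits, Pfdn4 (0.88), Pfdn6 (0.87), Pfdn2 (0.80) and Pfdn1 (0.53).

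Mitochondrial chaperones moved in both directions in SJY lungs. Hspe1 (HSP10), the lid of the chaperonin, had 229, 202, 189, 174 and 171 FPKM in SJY lungs, 231, 172, 169.8, 122 and 118 FPKM in ALI lungs and 178, 125, 120.5, 93.6 and 113 FPKM in control lungs. Only control 4 at 178 FPKM reached into the SJY range. Hspe1 rose in SJY lungs (0.63 ± 0.19 SE, adjusted p = 0.0186), a call lost without control 7 (adjusted p = 0.0552) and when FPKM outside mitochondrially encoded genes were made equal (adjusted p = 0.0528), and did not pass in ALI lungs (0.35 ± 0.19 SE, adjusted p = 0.193). Hspd1 (HSP60), which forms the chaperonin barrel and is transcribed from the shared promoter, stood at 35.9 to 58.6 FPKM in SJY lungs, 46.1 to 92 FPKM in ALI lungs and 49.9 to 62.5 FPKM in control lungs and did not pass (adjusted p = 0.571 in ALI lungs and 0.336 in SJY lungs). Hspe1 was 3.06 to 6.39 times Hspd1 in SJY lungs, 1.76 to 3.74 times in ALI lungs and 1.59 to 3.12 times in control lungs, so SJY libraries overlapped control only at the edge of both ranges. The list names 20 pseudogenes after Hspd1.

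Hspa9 (mortalin), the mitochondrial HSP70 that pulls proteins through the inner membrane, had 11.4, 18.9, 19.8, 20.4 and 23.8 FPKM in SJY lungs, 52.9, 23.2, 25, 35.8 and 28.2 FPKM in ALI lungs and 25.2, 26.1, 31.5, 32 and 39.7 FPKM in control lungs. ALI 1, the library with the highest mitochondrial share, held the highest value and SJY 1 the lowest. All SJY values lay under the lowest control value. Hspa9 fell in SJY lungs (−0.70 ± 0.22 SE, adjusted p = 0.0241), a call lost without SJY 1 or control 6, 7 or 8 (adjusted p from 0.0501 to 0.0678) and under median-of-ratios scaling (adjusted p = 0.0848), and stood at 0.05 ± 0.22 SE, adjusted p = 0.897 in ALI lungs. Dnaja3 (TID1), its DnaJ partner in the matrix, ranged over 18.5 to 24.8 FPKM in SJY lungs, 21.4 to 29.6 FPKM in ALI lungs and 25.9 to 31.2 FPKM in control lungs and fell in SJY lungs (−0.33 ± 0.11 SE, adjusted p = 0.0286). That call was lost without SJY 1 or 5 or control 5, 6, 7 or 8 (adjusted p from 0.0516 to 0.0705) and under median-of-ratios scaling (adjusted p = 0.215).

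The small inner-membrane DnaJ proteins Dnajc19 and Dnajc15 rose in SJY lungs. Dnajc19 (TIM14), a subunit of the import motor, had 14.9, 13.7, 15.7, 15.5 and 12.7 FPKM in SJY lungs, 9.62, 13.5, 14, 12.5 and 12.4 FPKM in ALI lungs and 10.2, 8.92, 10.3, 9.13 and 9.51 FPKM in control lungs. All SJY values exceeded control, and ALI 1 at 9.62 FPKM fell within it. Dnajc19 rose in SJY lungs (0.54 ± 0.11 SE, adjusted p = 0.00259) and did not pass in ALI lungs (0.33 ± 0.11 SE, adjusted p = 0.0557). Dnajc15 (MCJ), a relative that restrains respiratory complex I, had 19.9, 19, 17.9, 21.9 and 17.7 FPKM in SJY lungs, 19.3, 19, 18.4, 21 and 14.8 FPKM in ALI lungs and 12.5, 10.7, 12.2, 14.8 and 11.7 FPKM in control lungs. The SJY values lay wholly above control, and ALI 5 met control 7 at 14.8 FPKM to 3 digits. Dnajc15 rose by 0.54 ± 0.12 SE, adjusted p = 0.00534 in ALI lungs and 0.60 ± 0.12 SE, adjusted p = 0.00147 in SJY lungs. Of 11 tested non-member genes of mitochondrial folding and proteolysis, none passed in ALI lungs, and in SJY lungs the import subunit Pam16 (0.69) and the proteases Htra2 (0.64) and Clpp (0.46) rose. The exchange factor Grpel2 (−0.57) and the proteases Lonp1 (−0.51) and Clpx (−0.31) fell. Among all genes tested, 17.6% passed in ALI lungs, and in SJY lungs 14.6% rose and 18.1% fell.

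**Figure D5:**
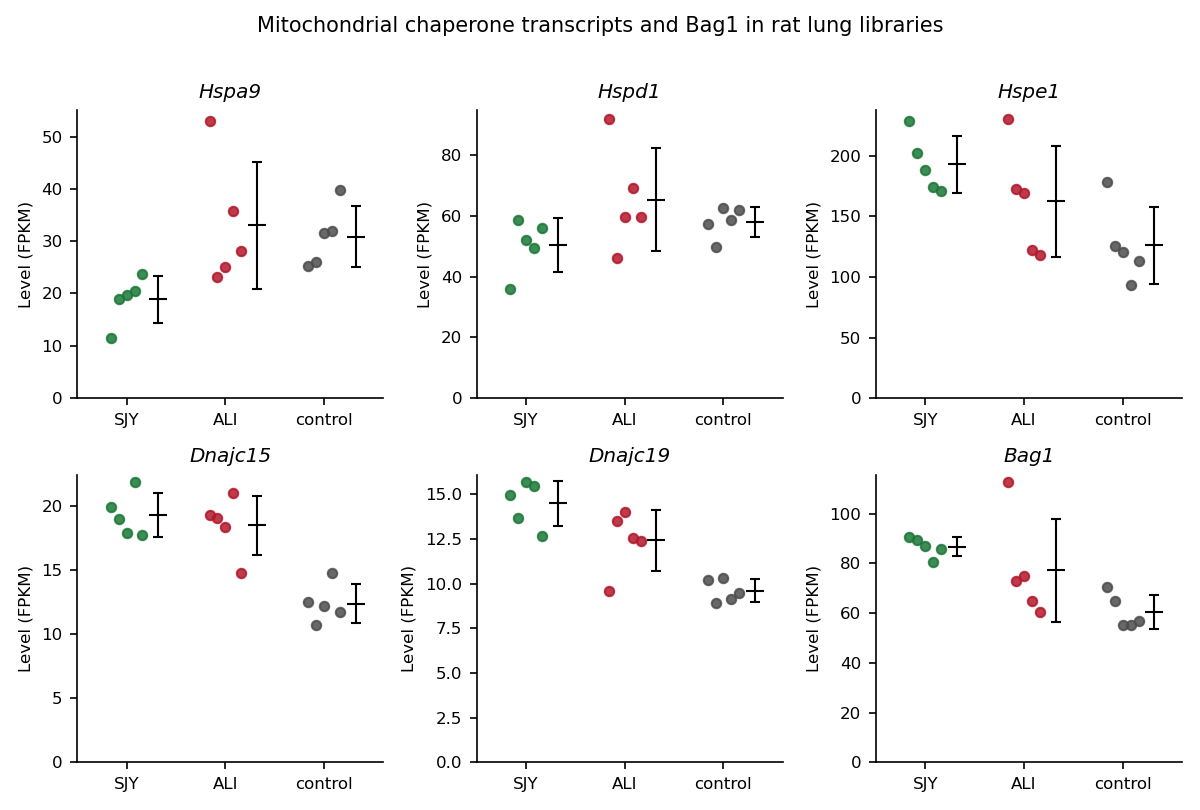
FPKM of 5 mitochondrial chaperone or co-chaperone genes and Bag1 in each library of SJY, ALI and control lungs; points are libraries, and bars are the mean ± SD of 5. Hspe1, Dnajc15, Dnajc19 and Bag1 run high and Hspa9 low in SJY lungs, and the topmost ALI points of Hspa9, Hspd1, Hspe1 and Bag1 are ALI 1.

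Of the 25 tested DNAJC members, 3 rose and 1 fell in ALI lungs, and 7 rose and 2 fell in SJY lungs, with median differences of 0.05 and 0.19. Shares of all genes tested were 8.02% higher and 9.56% lower in ALI lungs, and 14.6% and 18.1% in SJY lungs. Dnajc2 (MPP11), a ribosome-bound DnaJ protein, had 29.2, 25.7, 26.6, 21.2 and 23.6 FPKM in SJY lungs, 29.7, 22.9, 28.5, 23.9 and 20.1 FPKM in ALI lungs and 18.8, 14, 18.5, 15.4 and 18.6 FPKM in control lungs. Neither LPS group overlapped control, and Dnajc2 rose by 0.52 ± 0.13 SE, adjusted p = 0.0131 in ALI and 0.54 ± 0.13 SE, adjusted p = 0.00578 in SJY lungs. Dnajc8, found with the spliceosome, had 89.7, 73.3, 72.4, 71 and 72.7 FPKM in SJY lungs, 66.2, 67.3, 65.5, 65.2 and 60.1 FPKM in ALI lungs and 61.7, 54.1, 54.9, 57.2 and 52.6 FPKM in control lungs. All SJY values exceeded all ALI and all control values. Dnajc8 rose in SJY lungs (0.42 ± 0.09 SE, adjusted p = 0.00261) and did not pass in ALI lungs (0.21 ± 0.09 SE, adjusted p = 0.112). Dnajc17, also linked to splicing, ranged over 16.2 to 19 FPKM in SJY lungs, 11.3 to 16.9 FPKM in ALI lungs and 9.21 to 15.6 FPKM in control lungs and rose in SJY lungs (0.41 ± 0.14 SE, adjusted p = 0.0371), a call lost without SJY 1, 3, 4, 5 or 6 or control 6, 7 or 8 (adjusted p from 0.0502 to 0.105) and when FPKM outside mitochondrially encoded genes were made equal (adjusted p = 0.133). Of the members not called, Dnajc21, a ribosome biogenesis factor, lay below control in every SJY library without a call (−0.24 ± 0.10 SE, adjusted p = 0.0606).

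Dnajc12, a DnaJ protein that in humans assists aromatic amino acid hydroxylases, had 24.5, 11.7, 19.7, 17 and 15.1 FPKM in SJY lungs, 13.8, 17.9, 14, 14.7 and 16 FPKM in ALI lungs and 11, 15.1, 10, 10.3 and 10.01 FPKM in control lungs. Control 5 at 15.1 FPKM lay within both LPS groups. Dnajc12 rose in SJY lungs (0.57 ± 0.17 SE, adjusted p = 0.0176) and did not pass in ALI lungs (0.41 ± 0.17 SE, adjusted p = 0.0969). Dnajc16 had 2.23, 5.35, 5.18, 3.85 and 5.49 FPKM in SJY lungs, 4.17, 6.64, 6.38, 7.02 and 6.62 FPKM in ALI lungs and 5.23, 7, 7.44, 7.94 and 7.68 FPKM in control lungs. SJY 1 was lowest of all. Dnajc16 fell in SJY lungs (−0.61 ± 0.20 SE, adjusted p = 0.0284), a call lost without SJY 1 or 5 or control 5, 6, 7 or 8 (adjusted p from 0.0512 to 0.068), with −0.17 in ALI lungs (adjusted p = 0.547). Dnajc28 had 0.491, 0.414, 0.705, 0.679 and 0.263 FPKM in SJY lungs, 0.527, 0.649, 0.644, 1.01 and 1.58 FPKM in ALI lungs and 1.55, 2.01, 2.57, 2.07 and 1.86 FPKM in control lungs. It reached 1 FPKM in all 5 control, 2 ALI and no SJY libraries, so it was tested only through its control level. A filter passed in this way favours genes that are higher in control, so the calls of Dnajc28 are no support for a fall. They are nevertheless counted among the lower members, and among the lower DNAJC members, of both comparisons. Dnajc28 differed by −0.70 ± 0.16 SE, adjusted p = 0.00908 in ALI lungs and −0.995 ± 0.16 SE, adjusted p = 0.000474 in SJY lungs.

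Dnajb13, known in humans as a radial spoke protein of motile cilia, had 3.07, 4.93, 6.99, 7.75 and 8.53 FPKM in SJY lungs, 4.16, 6.74, 7.39, 6.02 and 7.19 FPKM in ALI lungs and 9.35, 7.87, 8.43, 13 and 9.55 FPKM in control lungs. All ALI values lay under the lowest control value of 7.87 FPKM, and SJY 6 exceeded it. Dnajb13 fell in SJY lungs (−0.60 ± 0.22 SE, adjusted p = 0.0488), a call lost without SJY 1, 3 or 4 or ALI 2, 3, 4 or 5 or control 4, 5, 6, 7 or 8 (adjusted p from 0.0528 to 0.128), with a pseudocount of 0.1 (adjusted p = 0.0545) and with no filter on low values (adjusted p = 0.0638), and did not pass in ALI lungs (−0.55 ± 0.22 SE, adjusted p = 0.095). Of 9 tested ciliated cell markers 3 fell in SJY lungs (Dnah9, Dnai1 and Ccdc40) and 2 in ALI lungs (Dnah9 and Dnai1), and the list's summed level was 47.4 to 93.3 FPKM in SJY lungs, 44.9 to 122 FPKM in ALI lungs and 63.4 to 123 FPKM in control lungs. The part of ciliated cells in the Dnajb13 result was not tested.

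BAG proteins release clients from HSP70, and of 5 tested none was called in ALI lungs and 1 rose and 1 fell in SJY lungs. Of all genes tested, 17.6% were called in ALI lungs, and 14.6% rose and 18.1% fell in SJY lungs. Bag1, which links HSP70 to the proteasome, had 90.7, 89.2, 87, 80.5 and 85.8 FPKM in SJY lungs, 113, 73, 74.8, 65 and 60.4 FPKM in ALI lungs and 70.3, 65, 55.2, 55.3 and 56.8 FPKM in control lungs. All SJY values lay above all control values, and ALI 1 stood far above the other ALI libraries. Bag1 rose in SJY lungs (0.52 ± 0.14 SE, adjusted p = 0.0116), a call lost when FPKM outside mitochondrially encoded genes were made equal (adjusted p = 0.0697), and did not pass in ALI lungs (0.32 ± 0.14 SE, adjusted p = 0.122). Bag4 (SODD), a silencer of death-receptor signalling, had 0.673, 1.55, 1.51, 1.99 and 1.73 FPKM in SJY lungs, 4.56, 1.84, 1.99, 1.98 and 3.14 FPKM in ALI lungs and 2.17, 4.60, 4.44, 3.05 and 4.24 FPKM in control lungs. All SJY values lay under the lowest control value of 2.17 FPKM. Bag4 fell in SJY lungs (−0.91 ± 0.23 SE, adjusted p = 0.00719) and differed by −0.36 ± 0.23 SE, adjusted p = 0.258 in ALI lungs. Bag3, the heat-inducible partner of Hspb8, averaged 21.6 ± 1.60 FPKM in SJY lungs, 21.6 ± 5.11 FPKM in ALI lungs and 21.4 ± 3.74 FPKM in control lungs and was not called. Bag6, which guards tail-anchored proteins, and Bag2, an inhibitor of the ubiquitin ligase CHIP, were not called either, with adjusted p of 0.413 and 0.649 in ALI lungs and 0.904 and 0.815 in SJY lungs.

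The comparison of SJY with ALI lungs asks what the formula changed in injured lung. No member passed: limma called 0 of 72, against 0.00743% of all genes tested (1 gene). At an unadjusted p under 0.05 there were 7 members, 3 higher and 4 lower, against 11.8% of all genes, and the members' median difference was 0.01 beside 0.03. Hspb1 had the smallest p, with 369 ± 94.1 FPKM in SJY lungs, 207 ± 39.4 FPKM in ALI lungs and 355 ± 84.9 FPKM in control lungs. All 5 SJY values lay above all 5 ALI values. Its difference of 0.82 ± 0.20 SE, adjusted p = 0.164 (unadjusted p = 0.000722) did not survive adjustment, and it did not pass under any of 24 alternatives, whose adjusted p ran from 0.0528 to 0.422.

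Dnajc4 ranged over 15.3 to 20.6 FPKM in SJY lungs, 9.96 to 15.1 FPKM in ALI lungs and 13.9 to 19.1 FPKM in control lungs, also without overlap between SJY and ALI lungs (0.49 ± 0.13 SE, adjusted p = 0.194). Dnajc8 was the last member whose SJY and ALI values did not overlap (0.22 ± 0.09 SE, adjusted p = 0.368), giving 3 members higher without overlap, against 2.24% of all genes, and none lower, against 0.988% (3.23% in either direction). The members lower at an unadjusted p under 0.05 were Hspa9 (−0.75 ± 0.22 SE, adjusted p = 0.234), Bag4 (−0.55 ± 0.23 SE, adjusted p = 0.369), Dnajc16 (−0.43 ± 0.20 SE, adjusted p = 0.408) and Hspd1 (−0.35 ± 0.16 SE, adjusted p = 0.419). With array weights, which count spread-out libraries less, 2 members passed, Bag1 (adjusted p = 0.0458, over a range of 0.0458 to 0.860) and Dnajc4 (adjusted p = 0.0459, over a range of 0.0459 to 0.443). Without ALI 1 no member passed. The ER chaperones differed between SJY and ALI lungs without a call: −0.16 ± 0.17 SE, adjusted p = 0.748 for Hspa5, −0.18 ± 0.14 SE, adjusted p = 0.656 for Hsp90b1, −0.13 ± 0.12 SE, adjusted p = 0.72 for Dnajb11 and −0.25 ± 0.13 SE, adjusted p = 0.471 for Dnajc3. Between SJY and ALI lungs no gene of the partner lists was called. Tested were 28 ER, 24 HSP110 and chaperone-partner, 14 TRiC and prefoldin and 11 mitochondrial genes. At an unadjusted p under 0.05 these lists had 4, 4, 5 and 1 genes, against 11.8% of all genes tested.

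The 8 members that were not tested averaged under 1 FPKM. Dnajb8, a testis-rich aggregation suppressor, was listed at 0 in every library. Hspb3 was listed above 0 only in ALI 3, at 0.106 FPKM. Hspa1l, Dnajb7, Dnajc5b, Dnajc5g, Dnajc6 (auxilin, a neuronal uncoating factor) and Bag5 averaged 0.0268 to 0.316 FPKM over all libraries. Of the 43 tested members not called in SJY lungs, examples with overlapping groups are Dnajc11, a mitochondrial membrane protein (13.2 to 17.7 FPKM in SJY lungs, 15.5 to 16.8 FPKM in ALI lungs and 13.6 to 19 FPKM in control lungs), and Dnajb6, a suppressor of polyglutamine aggregation (40.02 to 47.9 FPKM in SJY lungs, 44.5 to 49.97 FPKM in ALI lungs and 37.2 to 47.7 FPKM in control lungs). Dnajc11 differed from control by 0.01 ± 0.11 SE, adjusted p = 0.952 in ALI lungs and 0.01 ± 0.11 SE, adjusted p = 0.951 in SJY lungs, which does not show that its level was equal.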

How the data were processed

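RNA of rat lung was measured in 15 libraries, 5 in each of 3 groups taken from the labels. Per the labels' protocols, TRIzol RNA went into NEBNext Ultra RNA libraries. Trimming, alignment and assembly tools are named as cutadapt, HISAT2 and StringTie, with build Rnor_6.0, per the submitters' processing notes; their versions and any strand setting are not given in the sources used here. For 22250 genes the authors deposited FPKM, per the file headers. FPKM carry no counts, so depth is unknown and no counting interval can be given. Steps between low values placed the libraries within 0.988 to 1.146 of the depth of control 8. That search admitted only ratios near equal, so it could not have found a library of very different depth.

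Values were turned into log2(FPKM + 1), which understates changes of low genes, and a gene was tested where 5 or more of the 15 libraries reached 1 FPKM. limma 3.58.1 (R 4.3.3; lmFit, eBayes with trend and robust) fitted all 3 groups, two-sided, with Benjamini-Hochberg adjustment over 13457 genes and calls at an adjusted p under 0.05. p-values measure the spread between libraries, which may be technical. The test was checked on simulated data with 200 genes changed. Members, lists and tests were chosen with earlier results of these data known. Values in every library were given for up to 30 members: those called, by size of change, with the inducible HSP70 genes, Hsf1 and Hsf2. Up to 4 called genes per partner list and direction were named. Alternatives covered scaling, pseudocount, filter, moderation, weights, samples in the fit, the replicate number as a block and leaving out each library. Promoter windows were RefSeq's (GRCr8) and their motifs were found by exact match; no other coordinates are given, since the builds differ. 149 symbols stand on more than 1 line of the table, none of them a member's.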

Additional observations from a re-analysis of the deposited data

Results flagged for a closer look

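In groups of 5 libraries, 36 members (those called, with Hspa1l, Hsf1, Hsf2, Hspa8, Hspd1 and Dnajc4) were searched for a library far from the other 4, and 5 of 108 groups had one, where chance flags about 1 in 20. Bag1 stood at 113 FPKM in ALI 1, against 60.4 to 74.8 FPKM in the other ALI libraries. Dnajc16 stood at 4.17 FPKM in ALI 1, against 6.38 to 7.02 FPKM in the others. Dnajc8 reached 89.7 FPKM in SJY 1, against 71 to 73.3 FPKM in the other SJY libraries. Dnajc12 reached 15.1 FPKM in control 5, against 10 to 11 FPKM in the other controls. Hsf2 reached 9.29 FPKM in control 4, against 6.78 to 7.46 FPKM. ALI 1 and SJY 1 are also the libraries with the highest shares of mitochondrially encoded transcripts, 37.7% and 17.1%.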

How the results depend on the processing

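No called member changed sign under any of the 24 alternatives: of the single-member values recomputed, 4938 kept their side of the threshold, 142 lost it and 68 passed it newly. With array weights 10 members were higher and 15 lower in ALI than in control, 26 were lower in SJY than in control, and 2 were higher in SJY than in ALI (Bag1 and Dnajc4). With FPKM outside mitochondrially encoded genes made equal, 6 were higher in SJY than in control. Leaving out 1 library gave 6 to 7 higher and 8 to 12 lower in ALI than in control, 8 to 12 higher and 8 to 22 lower in SJY than in control, and 0 to 0 in either direction between SJY and ALI. The 17 lower members of SJY became 10 without SJY 1, 11 without control 5, 8 without control 6, 10 without control 7 and 9 without control 8, and the 12 higher became 8 without SJY 4 or control 7. Of the calls, 14 of 15 in ALI and 15 of 29 in SJY held without each library in turn. Fits without a library hold fewer samples; the cause of the other shifts was not tested. Deviations of libraries that share a number correlated at −0.39 to 0.30, over 2 to 4 shared numbers a comparison. So few shared numbers cannot show whether the numbers pair samples, and the labels do not say. The fit with the replicate number as a block called 1 member higher and 2 lower in ALI than in control, 1 and 3 in SJY, and 0 between SJY and ALI. Calls kept in it were those of Dnajc3, Hspb1 and Hspa1b in ALI lungs and of Dnajc15, Dnaja4, Dnajc28 and Hspa1b in SJY lungs. Every other call was lost there. Under every alternative that gave a value, 2 of 15 ALI calls and 4 of 29 SJY calls held. Requiring a mean of 5 FPKM gave no value for low members such as Hspa1b and Hspa12a. FPKM without counts set no limit from depth, and changes of low members are understated.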
